A study of Mus musculus with 4 samples.

Results

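Cytochrome P450 genes were taken as all genes on the array whose symbol is Cyp followed by a digit, leaving out symbols marked -ps for pseudogene and the cholesterol synthesis gene Cyp51. This gave 93 of the 22180 genes measured, 1 probe set per gene. Of these, 34 were kept because at least 1 of their 4 values was at or above log2 4.65, the median of all gene by array values, as was true of 12118 genes in all. That median level stands in for background, since the values carry no detection call. Among the 34, 18 were at or above that level on all 4 arrays and 5 on 1 array alone. RefSeq lists 92 of the 93 as protein coding and Cyp2d13, kept here by its symbol, as a transcribed pseudogene. Against normal colon of the same Dmt1 genotype, the Cyp2c genes Cyp2c55 and Cyp2c65 and the genes Cyp3a13 and Cyp4f14 were lower in tumours of both genotypes by 2-fold or more, also with values under the median level raised to it. Cyp27a1 was higher in both by 2-fold or more on the same terms. A further Cyp2c55 probe set, not the one used, had a tumour difference of -1.31 in F/F mice but -0.11 in wild-type mice. The F/F tumour had at least 2-fold more signal than the wild-type tumour for 10 of the 34 genes, where 1.69% of all kept genes had, and at least 2-fold less for 0, where 0.503% had. With values under the median level raised to it, an alternative chosen after seeing the data, the F/F tumour had at least 2-fold more signal for 8, where 1.34% of all kept genes had. A fold against a value under the median level is given as "at least", measured from that level.

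The study profiled RNA of colon tumours and normal colon of C57BL/6 mice aged 3 months on 4 Affymetrix whole-transcript arrays. There was 1 array each for Dmt1 F/F tumour, Dmt1 wild-type tumour, Dmt1 F/F normal colon and Dmt1 wild-type normal colon. All mice, the wild-type ones included, carried ApcF/+ and CDX2, a term left unexplained in the labels. The letter F conventionally stands for a loxP-flanked allele, and no label names the Cre or the cells it acts in. Dmt1 is the name of an iron importer whose gene has the symbol Slc11a2. The series' design text names 4 F/F and 7 wild-type animals, but no source used here says which animals went onto which array or whether RNA was pooled. With 1 array per group, a difference between 2 arrays has no replicate check. In whole tissue, fewer cells of a type and less RNA per cell cannot be told apart. Probe sets of near-identical family members can pick up each other's RNA, and values within Cyp2c, Cyp2d, Cyp3a and Cyp4a are uncertain as to the member.

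Cytochrome P450 enzymes hold a heme iron bound through a cysteine and insert oxygen into their substrates. Most sit in the endoplasmic reticulum and draw electrons from the reductase Por, while a few in mitochondria draw them from the ferredoxin Fdx1. Members of families 1 to 3 oxidise foreign chemicals and also fatty acids and steroids, family 4 hydroxylates the far end of fatty acids and eicosanoids, and the remaining families act on steroid hormones, bile acids, vitamin D or retinoic acid. The liver is their main site, and the gut epithelium, which meets ingested chemicals first, has its own set.

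The promoters of 5 Cyp2c genes are shown because these neighbours in a single gene cluster carried both the most negative tumour differences of the 34 genes and, in Cyp2c68, a positive one in F/F mice. They are the 250 bases before the start site in the RefSeq promoter table, build GRCm38.p6, printed 5′ to 3′ on the gene's own strand. Capitals mark CAAAGTCCA, the core of the sequence bound by the nuclear receptor HNF4, or its first 8 letters CAAAGTCC, a shorter motif contained in it. Both were searched on both strands and chosen after the sequences had been read.
Cyp2c55, chr19:39006769-39007018, plus strand: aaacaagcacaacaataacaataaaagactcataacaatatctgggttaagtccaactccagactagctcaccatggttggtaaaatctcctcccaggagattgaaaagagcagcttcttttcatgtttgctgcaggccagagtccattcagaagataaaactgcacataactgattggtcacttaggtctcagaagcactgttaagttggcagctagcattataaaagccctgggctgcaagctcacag
Cyp2c65, chr19:39060756-39061005, plus strand: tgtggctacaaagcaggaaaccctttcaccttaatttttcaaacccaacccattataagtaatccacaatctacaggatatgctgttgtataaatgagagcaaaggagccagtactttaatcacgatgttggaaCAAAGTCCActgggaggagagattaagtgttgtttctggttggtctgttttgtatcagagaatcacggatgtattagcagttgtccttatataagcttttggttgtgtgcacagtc
Cyp2c66, chr19:39113648-39113897, plus strand: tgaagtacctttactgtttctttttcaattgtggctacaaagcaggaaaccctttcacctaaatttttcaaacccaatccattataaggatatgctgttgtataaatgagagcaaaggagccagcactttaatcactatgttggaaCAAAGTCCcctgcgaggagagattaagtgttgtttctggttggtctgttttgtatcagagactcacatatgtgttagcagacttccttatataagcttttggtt
Cyp2c68, chr19:39741102-39741351, minus strand: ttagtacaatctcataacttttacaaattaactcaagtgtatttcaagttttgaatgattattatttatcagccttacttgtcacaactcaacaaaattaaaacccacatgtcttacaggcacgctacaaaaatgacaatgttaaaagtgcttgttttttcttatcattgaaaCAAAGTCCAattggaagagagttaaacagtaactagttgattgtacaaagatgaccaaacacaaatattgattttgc
Cyp2c69, chr19:39886770-39887019, minus strand: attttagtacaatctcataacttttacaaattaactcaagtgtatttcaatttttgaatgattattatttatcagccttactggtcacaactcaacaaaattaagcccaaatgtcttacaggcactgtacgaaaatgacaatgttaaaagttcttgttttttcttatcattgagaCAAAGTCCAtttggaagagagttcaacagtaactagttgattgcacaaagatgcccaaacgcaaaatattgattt

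In a pairwise alignment, the Cyp2c65 and Cyp2c66 promoters shared 208 of 250 bases (83.2%) and those of Cyp2c68 and Cyp2c69 232 (92.8%). The Cyp2c55 promoter shared at most 155 bases (62.0%) with any of the other four. CAAAGTCCA began at base -116 from the start in Cyp2c65, -77 in Cyp2c68 and -75 in Cyp2c69, and Cyp2c66 held the 8 letters CAAAGTCC at -104. The 9 letters occurred in 126 of 32851 promoters of this length (0.384%) and in 8 of the 71 cytochrome P450 genes with a promoter in the table (11.3%). These were Cyp2c40, Cyp2c65, Cyp2c68, Cyp2c69, Cyp2c70, Cyp3a11, Cyp3a16 and Cyp8b1, and 3 of them were among the 34 kept genes. The 8 letters occurred in 1.196% of promoters. The letters ATAAAA are part of the sequence bound by Cdx factors. They occurred on either strand in 16.97% of all promoters and in 19 of the 71 genes. Cyp2c55 held 3 copies, beginning at -230, -95 and -28 from the start, and the others shown held none. The copy at -28 is part of the longer run TATAAAA close to the start, so it need not be read as a Cdx sequence. A match is a description of these letters in this window and no evidence that a factor binds there.

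Cyp2c55 and Cyp2c65 are Cyp2c members of the mouse gut; Cyp2c enzymes epoxidise and hydroxylate arachidonic acid and oxidise many drugs. Cyp2c55 was at log2 9.91 in F/F tumour and 7.03 in wild-type tumour, against 12.11 in F/F normal colon and 11.67 in wild-type normal colon. Both tumour arrays lay below both normal arrays, and the wild-type tumour lay lowest. The tumour difference was -2.21 on the log2 scale in F/F mice and -4.64 in wild-type mice, or 4.61-fold and 25.0-fold lower. A further Cyp2c55 probe set gave tumour differences of -1.31 in F/F and -0.11 in wild-type mice. Its values were 5.13 in F/F tumour, 5.04 in wild-type tumour, 6.44 in F/F normal colon and 5.16 in wild-type normal colon. The probe sets thus disagree on which genotype had the larger difference, and on whether the wild-type tumour was lower by 2-fold.

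Cyp2c65 was at log2 5.97 in F/F tumour and 4.29 in wild-type tumour, against 10.29 in F/F normal colon and 9.32 in wild-type normal colon. The tumours were 19.9-fold lower in F/F mice and, with the wild-type tumour value under the median level, at least 25.4-fold lower in wild-type mice. Cyp2c66, the next gene along the chromosome, had 3.44 in F/F tumour and 3.22 in wild-type tumour, against 6.57 in F/F normal colon and 5.0 in wild-type normal colon. Both tumours were under the median level, so the tumour was at least 3.78-fold lower in F/F mice and at least 1.28-fold lower in wild-type mice, and the sizes cannot be ranked between genotypes.

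In limma's additive model over the 4 arrays, which tests tissue and genotype together with Benjamini-Hochberg adjustment over 12118 genes, all 3 fell in tumour. The fitted log2 change was -4.67 for Cyp2c65 (SE 0.20, adjusted p = 0.00366), -3.43 for Cyp2c55 (SE 0.59, adjusted p = 0.0291) and -2.46 for Cyp2c66 (SE 0.38, adjusted p = 0.0242), each lower in 2 of 2 tumour arrays. With tissue as the model's one term, Cyp2c55 no longer passed (adjusted p = 0.0596). The model has 1 residual degree of freedom and takes the difference between genotypes in the tumour effect as its error, so a call does not show that both genotypes changed by a like amount.

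The remaining kept Cyp2c genes did not pass limma's tumour test. Cyp2c68 was at log2 7.08 in F/F tumour and 5.85 in wild-type tumour, against 5.35 in F/F normal colon and 6.06 in wild-type normal colon. It was higher in F/F tumour by 1.73 and differed by -0.21 in wild-type tumour (limma 0.76, adjusted p = 0.305). A probe set assigned to both Cyp2c67 and Cyp2c68 gave 1.43 in F/F and 0.24 in wild-type mice. Cyp2c69 had 4.65 in F/F tumour and 3.25 in wild-type tumour, against 5.05 in F/F normal colon and 4.09 in wild-type normal colon. Its F/F value was higher in normal colon. Both tumour values were under the median level, so their difference is uncertain in size and direction. Cyp2c39 ranged from 4.89 in F/F tumour to 5.67 in F/F normal colon. The other 8 of 14 Cyp2c genes, Cyp2c23, Cyp2c29, Cyp2c37, Cyp2c38, Cyp2c40, Cyp2c50, Cyp2c54 and Cyp2c70, stayed under the median level on every array.

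**Figure D1:**
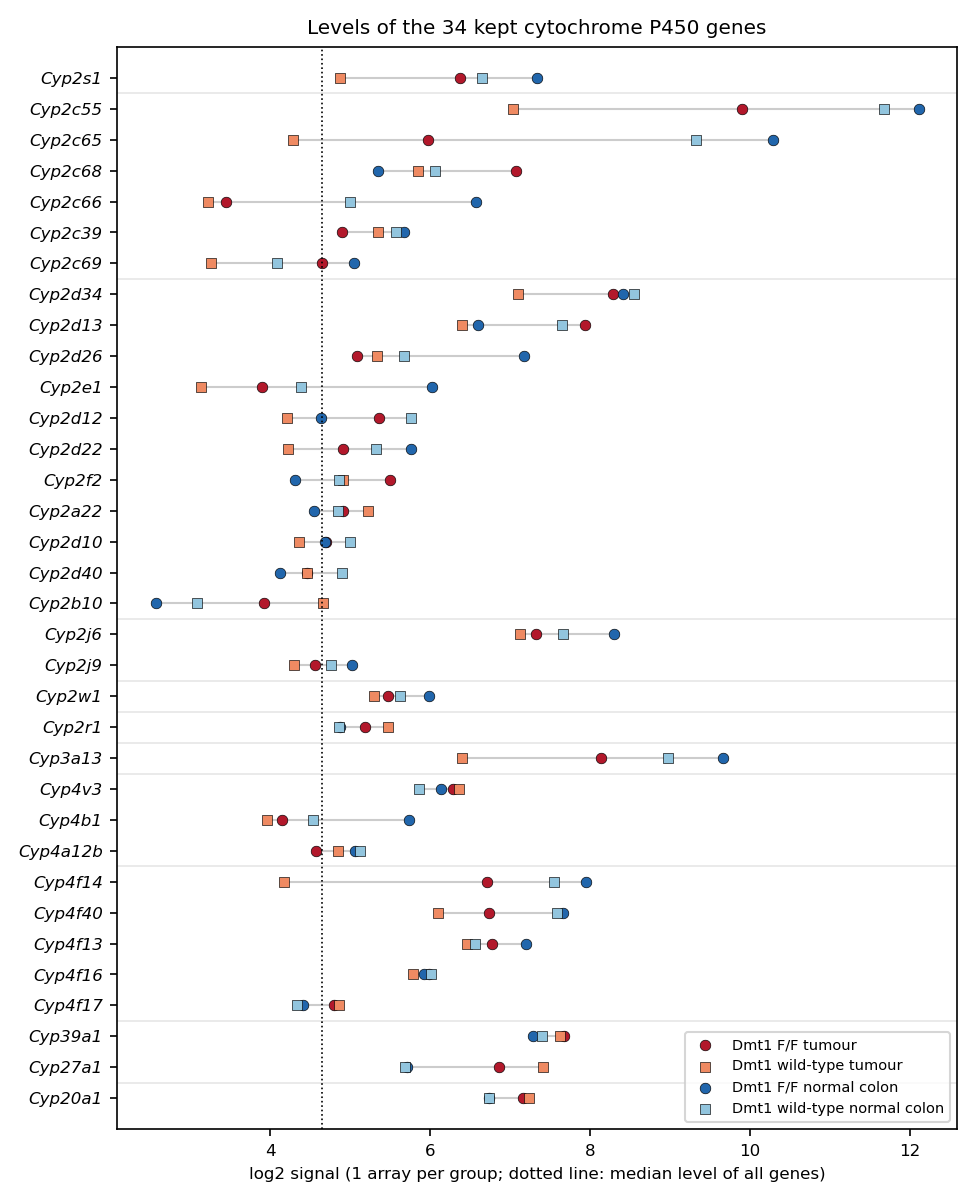
Log2 signal (x axis) of the 34 kept cytochrome P450 genes (y axis, grouped by family or role) on the 4 arrays, 1 point per array, with the median level of all genes, log2 4.65, as a dotted line. In Cyp2c55, Cyp2c65, Cyp3a13, Cyp4f14 and Cyp2s1 the wild-type tumour is the lowest point and F/F normal colon the highest, while in Cyp27a1 both tumours lie above both normal arrays.

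The Cyp2d genes of the mouse form a large cluster related to the human drug-metabolising gene CYP2D6. Of 11 kept genes in the subfamilies 2a, 2b, 2d, 2e, 2f and 2g, 7 were Cyp2d members. Cyp2d13 was at log2 7.93 in F/F tumour and 6.40 in wild-type tumour, against 6.60 in F/F normal colon and 7.65 in wild-type normal colon. It was 2.52-fold higher in tumour in F/F mice and 2.37-fold lower in wild-type mice. Cyp2d12, in the same cluster and separated from it by Cyp2d34 and pseudogenes, had 5.36 in F/F tumour and 4.21 in wild-type tumour, against 4.63 in F/F normal colon and 5.76 in wild-type normal colon. Cyp2d12 thus had tumour differences of 0.72 in F/F and -1.55 in wild-type mice, again of opposite sign. Its wild-type tumour value was under the median level, so that tumour was at least 2.16-fold lower.

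Cyp2d34 was at 8.29 in F/F tumour and 7.09 in wild-type tumour, against 8.42 in F/F normal colon and 8.55 in wild-type normal colon, and only the wild-type tumour stood away from the rest. Cyp2d26 had 5.09 in F/F tumour and 5.34 in wild-type tumour, against 7.17 in F/F normal colon and 5.67 in wild-type normal colon, so that here the F/F normal array stood away. Cyp2d22 was at 4.91 in F/F tumour and 4.22 in wild-type tumour, against 5.76 in F/F normal colon and 5.32 in wild-type normal colon. It was the only kept Cyp2d gene that passed limma's tumour test, with a fall of 0.97 (adjusted p = 0.0315), lower in 2 of 2 tumour arrays, and it did not pass with tissue as the one term (adjusted p = 0.0768) or under a stricter filter (adjusted p = 0.0662). Cyp2d10 and Cyp2d40 differed by less than 2-fold in every comparison.

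Cyp2e1, which oxidises ethanol, ketones and small solvents, was at log2 3.90 in F/F tumour and 3.13 in wild-type tumour, against 6.03 in F/F normal colon and 4.39 in wild-type normal colon. The F/F normal array was the only one over the median level, and the F/F tumour was at least 2.59-fold lower. Cyp2e1 was kept through that array alone, so it had to differ. Both wild-type values were under the level, so their difference is uncertain in size and direction. Cyp2e1 fell by 1.69 in limma's tumour test (adjusted p = 0.031), which takes in that uncertain wild-type difference and the array that kept the gene. Cyp2e1 did not pass with tissue as the one term (adjusted p = 0.104) or under a stricter filter (adjusted p = 0.0851). Fat cells also express Cyp2e1, and the adipocyte list moved with it: the mean log2 level of its 7 kept genes of 9 measured was 4.65 in F/F tumour and 4.44 in wild-type tumour, against 7.02 in F/F normal colon and 5.71 in wild-type normal colon. Adipoq and Lep, hormones of fat cells, were under the median level on all 4 arrays. The part of fat tissue in the Cyp2e1 values was not tested.

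Cyp2b10, the classical target gene of the xenobiotic receptor CAR (Nr1i3), had 3.92 in F/F tumour and 4.66 in wild-type tumour, against 2.56 in F/F normal colon and 3.08 in wild-type normal colon. It rose by 1.47 in limma's tumour test (adjusted p = 0.0473), which takes in F/F values under the median level. Both F/F values were under the median level, so their difference is uncertain in size and direction, and in wild-type mice the tumour was at least 1.01-fold higher. Cyp2b10 was kept through the wild-type tumour array alone, so it could enter only with a difference. Its value there lay just inside the level filter, where Cyp2d9, with a highest value of 4.58, lay just outside, and with tissue as the one term Cyp2b10 did not pass (adjusted p = 0.0595). Cyp2f2, an enzyme of lung club cells that activates naphthalene, was at 5.49 in F/F tumour and 4.91 in wild-type tumour, against 4.31 in F/F normal colon and 4.86 in wild-type normal colon, a tumour difference of 1.18 in F/F and 0.06 in wild-type mice. Its F/F normal value was under the median level, so the F/F tumour was at least 1.79-fold higher, a bound under 2-fold. A second Cyp2f2 probe set, under the median level on all 4 arrays, had tumour differences of -0.45 in F/F and 0.11 in wild-type mice. Cyp2a22 differed by less than 2-fold throughout. The other 10 of 21 genes of these subfamilies were under the median level on every array.

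Among families regulated by the dioxin receptor Ahr, the classical targets Cyp1a1, Cyp1a2 and Cyp1b1 were under the median level on all 4 arrays. Cyp2s1, an enzyme of epithelia outside the liver that Ahr also controls, was at log2 6.37 in F/F tumour and 4.87 in wild-type tumour, against 7.34 in F/F normal colon and 6.65 in wild-type normal colon. It fell by 1.38 in limma's tumour test (SE 0.23, adjusted p = 0.0282), lower in 2 of 2 tumour arrays, and did not pass with tissue as the one term (adjusted p = 0.125). Cyp2w1, known in humans for expression in colorectal tumours, was at 5.48 in F/F tumour and 5.29 in wild-type tumour, against 5.98 in F/F normal colon and 5.62 in wild-type normal colon, a limma difference of -0.42 (adjusted p = 0.115). Neither mouse tumour array exceeded either normal array for this gene.

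Cyp3a13 is the Cyp3a member best known from mouse intestine; Cyp3a enzymes oxidise a large share of drugs and steroids. It was at log2 8.14 in F/F tumour and 6.40 in wild-type tumour, against 9.66 in F/F normal colon and 8.98 in wild-type normal colon. The tumours were 2.87-fold lower in F/F mice and 5.97-fold lower in wild-type mice. Limma gave a fall of 2.05 (SE 0.27, adjusted p = 0.0198), lower in 2 of 2 tumour arrays, which did not pass with tissue as the one term (adjusted p = 0.0699). The remaining 6 of 7 Cyp3a genes, the main liver gene Cyp3a11 among them, were under the median level on every array.

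Cyp2j enzymes epoxidise arachidonic acid. Cyp2j6 was at 7.32 in F/F tumour and 7.13 in wild-type tumour, against 8.31 in F/F normal colon and 7.66 in wild-type normal colon. It fell by 0.76 in limma's tumour test (adjusted p = 0.0406), lower in 2 of 2 tumour arrays, but not with tissue as the one term (adjusted p = 0.0816) or without the variance trend (adjusted p = 0.0614). Cyp2j9 differed by -0.47 in F/F and -0.46 in wild-type mice, and the other 5 of 7 Cyp2j genes were under the median level.

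Cyp4f enzymes inactivate leukotriene B4 and other eicosanoids by hydroxylation at the far end of the chain, and Cyp4f14 is the mouse member known for this. Cyp4f14 was at log2 6.71 in F/F tumour and 4.17 in wild-type tumour, against 7.94 in F/F normal colon and 7.55 in wild-type normal colon. The wild-type tumour was the only array under the median level, and the tumour was 2.35-fold lower in F/F mice and at least 7.48-fold lower in wild-type mice. Limma's fall of 2.31 (SE 0.53, adjusted p = 0.049, lower in 2 of 2 tumour arrays) was lost with tissue as the one term (adjusted p = 0.103), with no level filter (adjusted p = 0.053) and without the variance trend (adjusted p = 0.0705).

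Cyp4f40, from the same cluster, had 6.73 in F/F tumour and 6.10 in wild-type tumour, against 7.66 in F/F normal colon and 7.59 in wild-type normal colon. It fell by 1.21 (SE 0.18, adjusted p = 0.0227), lower in 2 of 2 tumour arrays. Cyp4f13, Cyp4f16 and Cyp4f17 differed by less than 2-fold in every comparison, with tumour differences from -0.41 for Cyp4f13 to 0.40 for Cyp4f17 in F/F mice. Cyp4b1, a fatty acid hydroxylase of lung and other epithelia, was at 4.14 in F/F tumour and 3.95 in wild-type tumour, against 5.74 in F/F normal colon and 4.53 in wild-type normal colon, and did not pass limma's tumour test (-1.09, adjusted p = 0.0776). Cyp4v3 and Cyp4a12b differed by less than 2-fold, and the other 6 of 9 genes of 4a, 4b, 4x and 4v and 4 of 9 Cyp4f genes were under the median level.

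Of 6 sterol and bile acid genes 2 were kept. Cyp27a1, the mitochondrial sterol 27-hydroxylase of bile acid synthesis, was at log2 6.85 in F/F tumour and 7.41 in wild-type tumour, against 5.72 in F/F normal colon and 5.69 in wild-type normal colon. It was 2.20-fold higher in tumour in F/F mice and 3.29-fold higher in wild-type mice, and rose by 1.43 in limma's test (SE 0.18, adjusted p = 0.0186), higher in 2 of 2 tumour arrays. Macrophages also express Cyp27a1, and the macrophage list had a mean log2 level, over its 7 genes, of 6.62 in F/F tumour and 6.97 in wild-type tumour, against 5.58 in F/F normal colon and 6.04 in wild-type normal colon. Lyz2, Cd68 and Mmp12 of that list rose in limma's test, where 11.1% of all kept genes rose, and the other 4 did not pass. The part of macrophages in the Cyp27a1 difference was not tested.

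Cyp39a1, an oxysterol 7-hydroxylase, differed by 0.40 in F/F and 0.23 in wild-type mice. The vitamin D 25-hydroxylase Cyp2r1 differed by 0.31 in F/F and 0.62 in wild-type mice, and Cyp20a1, whose substrate is not established, by 0.43 in F/F and 0.49 in wild-type mice. None of these passed limma's tumour test. The liver bile acid genes Cyp7a1, Cyp7b1 and Cyp8b1, the brain cholesterol hydroxylase Cyp46a1, the vitamin D genes Cyp24a1 and Cyp27b1, 3 retinoic acid genes (Cyp26a1, Cyp26b1 and Cyp26c1) and 5 steroid hormone genes (Cyp11a1, Cyp11b1, Cyp11b2, Cyp17a1 and Cyp21a1) were under the median level on every array.

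Counted over the 34 kept genes, tumour against normal colon gave 8 genes lower and 5 higher by 2-fold or more in F/F mice, where 3.81% of all 12118 kept genes were lower and 5.97% higher. In wild-type mice 12 genes were lower and 2 higher, where 5.28% of all kept genes were lower and 6.55% higher. The median difference was -0.41 in F/F and -0.45 in wild-type mice, beside 0.04 and 0.08 over all kept genes. Genes lower by 2-fold or more in both genotypes, whose comparisons share no array, numbered 6 (Cyp2c55, Cyp2c65, Cyp2c66, Cyp2e1, Cyp3a13 and Cyp4f14) where 2.57% of all kept genes were, and 2 were higher in both (Cyp27a1 and, with both F/F values under the median level, Cyp2b10) where 3.63% of all kept genes were. Of the 6, Cyp2e1 had both wild-type values under the median level, and Cyp2c66 was at least 1.28-fold lower in wild-type mice. The further Cyp2c55 probe set differed by -0.11 in wild-type mice. The level filter keeps a gene through its highest array, so a gene that is high in normal colon alone could enter only with a difference. With values under the median level raised to it, 8 genes were lower and 3 higher in F/F tumour, where 3.27% and 4.54% of all kept genes were, and 9 lower and 1 higher in wild-type tumour, where 4.45% and 5.34% were.

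Limma's tumour test was passed by 10 genes that fell and 2 that rose, where 8.26% of all kept genes fell and 11.1% rose. Of all such calls 57.4% were rises, against 46.4% after cyclic loess and 47.4% after quantile normalization. The members that fell were Cyp2c55, Cyp2c65, Cyp2c66, Cyp2d22, Cyp2e1, Cyp2j6, Cyp2s1, Cyp3a13, Cyp4f14 and Cyp4f40. Of the members called, Cyp2e1 was kept through the F/F normal array alone, and Cyp2b10, which rose, through the wild-type tumour array alone. Neither call shows agreement between genotypes, because Cyp2e1 had both wild-type values and Cyp2b10 both F/F values under the median level. With tissue as the one term 3 still fell (Cyp2c65, Cyp2c66 and Cyp4f40) and 1 rose (Cyp27a1), where 652 of all 12118 kept genes fell and 1156 rose. With the wild-type normal array as the baseline of the F/F tumour, an alternative chosen after seeing the data, 3 genes were lower by 2-fold or more (Cyp2c55, Cyp2c65 and Cyp2c66) in place of 8, and 2 higher in place of 5. No share over all kept genes is given for this baseline.

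**Figure D2:**
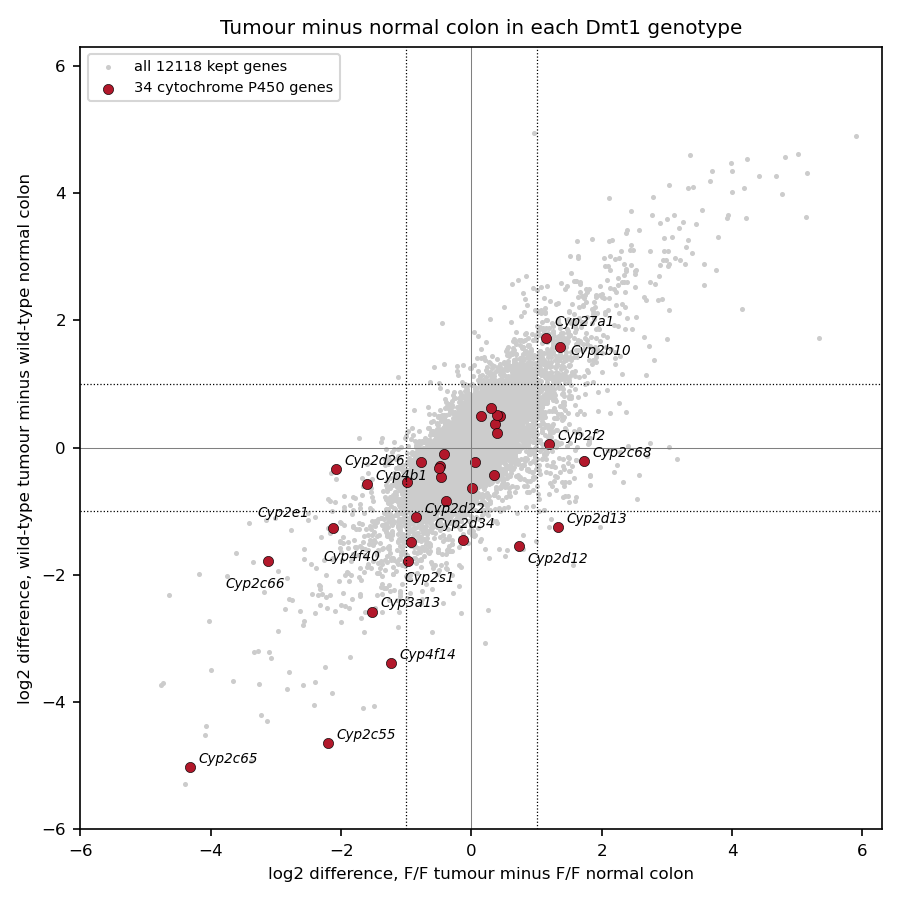
Log2 difference of tumour minus normal colon in Dmt1 F/F mice (x axis) and Dmt1 wild-type mice (y axis), with 34 cytochrome P450 genes in red over all 12118 kept genes in grey and dotted lines at 2-fold. Cyp2c65 lies at -4.32 in F/F and -5.03 in wild-type mice, and Cyp2d13 lies past the line in opposite directions, at 1.33 in F/F and -1.25 in wild-type mice.

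The tumours of both genotypes were compared to ask which cytochrome P450 genes differ with Dmt1 genotype in the tumour. In the F/F tumour 10 of the 34 genes were higher by 2-fold or more and 0 lower, where 1.69% of all kept genes were higher and 0.503% lower. The median difference was 0.24, beside -0.02 over all kept genes. Cyp2c55 differed by 2.88 (7.35-fold), Cyp3a13 by 1.74, Cyp2d13 by 1.53, Cyp2s1 by 1.51, Cyp2c68 by 1.23 and Cyp2d34 by 1.20. The wild-type tumour value was under the median level for Cyp4f14 (at least 4.17-fold higher in F/F), Cyp2c65 (at least 2.5-fold) and Cyp2d12 (at least 1.63-fold). Cyp2c69 (1.40) was under that level in both tumours, so its difference is uncertain in size and direction. Cyp2b10 (-0.74) and Cyp27a1 (-0.55) had the most negative differences of the 34. The second Cyp2c55 probe set differed by 0.09 between the tumours.

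Markers of absorptive colonocytes, the surface cells of the colon, also had a higher mean in the F/F than the wild-type tumour. The mean log2 level of the 14 kept of 14 measured was 9.39 in F/F tumour and 8.01 in wild-type tumour, against 10.31 in F/F normal colon and 10.14 in wild-type normal colon. Of these 14, 9 were higher in the F/F tumour by 2-fold or more and 0 lower, where 1.69% of all kept genes were higher and 0.503% lower. The water channel Aqp8 and the peptidase Dpep1 were each higher by 2.46. The neutrophil list stood the other way, with a mean over 7 genes of 4.56 in F/F tumour and 6.01 in wild-type tumour, against 3.53 in F/F normal colon and 3.72 in wild-type normal colon. B cell markers averaged 6.42 over 6 genes in F/F tumour and 4.49 in wild-type tumour, against 4.29 in F/F normal colon and 4.84 in wild-type normal colon. The part of these cells in the cytochrome P450 differences was not tested.

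In normal colon, 4 of the 34 genes were higher in F/F by 2-fold or more, where 0.718% of all kept genes were, and 2 were lower, where 0.899% were. Cyp2e1 (1.64), Cyp2c66 (1.57), Cyp2d26 (1.5) and Cyp4b1 (1.21) were higher, and Cyp2d12 (-1.13) and Cyp2d13 (-1.05) lower. Cyp2e1 and Cyp4b1 were kept through the F/F normal array alone, so they had to differ, and were at least 2.59-fold and 2.13-fold higher there. Cyp2d12 was at least 2.16-fold lower, its F/F value being under the median level. The median difference was 0.08, beside 0.04 over all kept genes. Cyp2c55 (0.44), Cyp4f14 (0.39) and Cyp3a13 (0.68), which differed by more than 2-fold between the tumours, did not reach that size here.

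Markers of position along the gut also separated the normal arrays. The proximal colon and small intestine list, 9 kept of 12 measured, averaged log2 7.63 in F/F normal colon and 6.69 in wild-type normal colon, and the distal list of 6 Hox genes 4.51 in F/F normal colon and 5.72 in wild-type normal colon. In tumours the proximal list averaged 5.31 in F/F and 5.07 in wild-type mice, and the distal list 6.70 in F/F and 6.72 in wild-type mice. Position along the colon is absent from the labels, so position and genotype cannot be told apart in normal colon, nor position and tumour in the tumour differences. Smooth muscle markers, 8 genes, averaged 8.03 in F/F tumour and 7.35 in wild-type tumour, against 8.67 in F/F normal colon and 9.41 in wild-type normal colon. All 8 had more signal in the F/F than the wild-type tumour, where 5593 of all 12118 kept genes had. In normal colon all 8 had less signal in F/F than in wild-type mice, where 5292 of all kept genes had. All 8 were lower by 2-fold or more in wild-type tumour than in wild-type normal colon, where 5.28% of all kept genes were. Their part in the cytochrome P450 differences was not tested.

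Limma's genotype test over both tissues called 0 of the 34 genes and 0.00% of all kept genes in either direction. At an unadjusted p under 0.05 there were 9 of the 34 and 991 of all kept genes. The smallest adjusted p was 0.509 among the 34 genes, that of Cyp2c65, whose fitted difference was 1.33 (SE 0.20, higher in 2 of 2 F/F arrays), and 0.496 among all kept genes. No other tool was run.

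**Figure D3:**
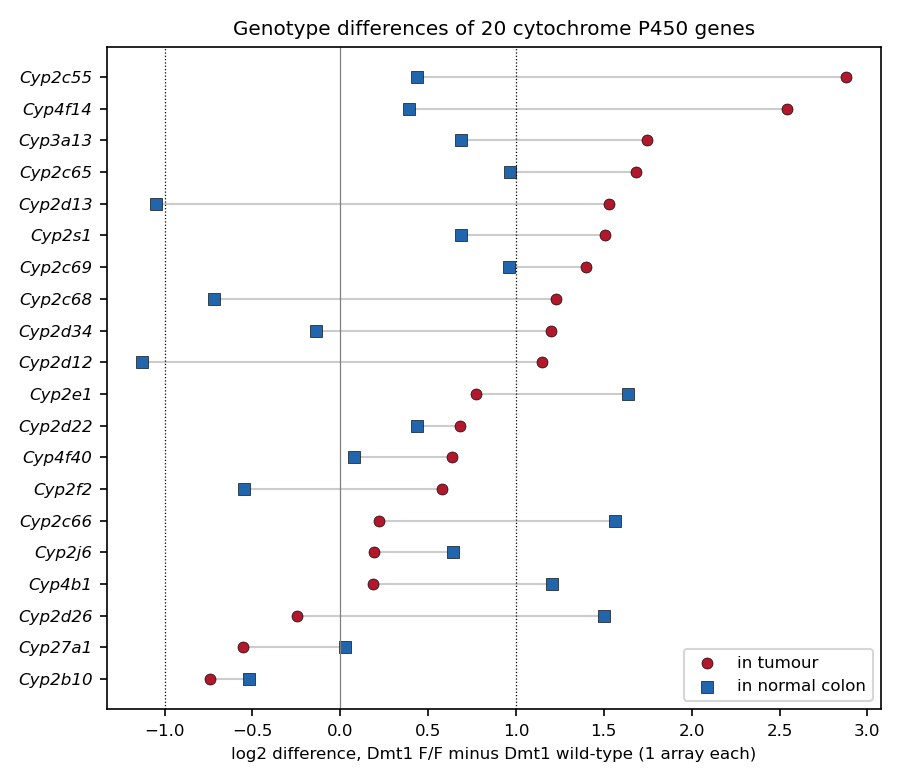
Log2 difference of Dmt1 F/F minus Dmt1 wild-type (x axis), in tumour (red circles) and in normal colon (blue squares), for the 20 cytochrome P450 genes that passed 2-fold in any comparison or limma's test (y axis), with dotted lines at 2-fold. The 10 uppermost genes lie beyond 1 in tumour, and Cyp2d12 and Cyp2d13 lie beyond -1 in normal colon.

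The tumour difference itself differed between genotypes, F/F minus wild-type, by a log2 size of 1 or more in 11 of the 34 genes. It was more positive in F/F mice for 8, where 2.86% of all kept genes were, and more negative for 3, where 1.35% were. The 8 were Cyp2d13 (2.58), Cyp2c55 (2.44), Cyp2d12 (2.28), Cyp4f14 (2.16), Cyp2c68 (1.94), Cyp2d34 (1.33), Cyp2f2 (1.13) and Cyp3a13 (1.06). The 3 were Cyp2d26 (-1.75), Cyp2c66 (-1.34) and Cyp4b1 (-1.02). With the mean of its probe sets the Cyp2c55 value was 0.62, and Cyp2f2 was no longer kept. The Cyp2c66 value rests on tumour values under the median level and so on the difference between the normal arrays. Cyp4b1 was over that level on the F/F normal array alone. With values under the median level raised to it, 7 genes were more positive, without Cyp2f2, where 2.08% of all kept genes were. On the same terms 4 were more negative, Cyp2e1 now among them, where 0.916% were. All these values come from 4 arrays with no residual degree of freedom, and the difference was not tested.

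The 14 kept genes not given in full above differed by at most 0.78 in log2 size in any comparison. Their tumour differences ran from -0.78 to 0.43 in F/F mice and from -0.64 to 0.62 in wild-type mice. The 59 genes under the median level had values between log2 1.62 and 4.58. The largest difference among them, 1.22, was that of Cyp2d9 between the tumours, and differences at such levels are uncertain in size and direction.

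Nuclear receptors and homeobox factors known to control these genes were lower in tumour for the most part. Of 18 kept regulators of 25 measured, 12 fell in limma's tumour test and 1 rose, where 8.26% of all kept genes fell and 11.1% rose. The intestinal factor Cdx2 was at log2 6.61 in F/F tumour and 5.22 in wild-type tumour, against 8.70 in F/F normal colon and 7.78 in wild-type normal colon, and fell by 2.33 (limma adjusted p = 0.00688). The bile acid receptor FXR (Nr1h4) fell by 1.99 (adjusted p = 0.00569), and the pregnane X receptor Nr1i2, which controls Cyp3a and Cyp2c genes, by 0.92 (adjusted p = 0.0226). Hnf4g fell by 1.34 (adjusted p = 0.0106) and Hnf4a by 0.62 (adjusted p = 0.0282). Ahr was the regulator that rose, by 0.92 (adjusted p = 0.0184), while Cyp2s1 fell. Each of these 6 moved in the same direction in 2 of 2 tumour arrays.

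In the F/F tumour 3 of the 18 were higher by 2-fold or more, namely the circadian factor Dbp (1.58), Cdx2 (1.39) and the vitamin D receptor Vdr (1.39), and 0 lower, where 1.69% of all kept genes were higher and 0.503% lower. In F/F normal colon 2 were higher, the fatty acid receptor Ppara (1.10) and Dbp (1.05), and 0 lower, where 0.718% of all kept genes were higher and 0.899% lower. CAR (Nr1i3), the regulator of Cyp2b10, was under the median level on all 4 arrays; it is named here after its values were seen.

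Of 12 kept genes of electron donors, heme supply and heme breakdown, of 13 measured, 3 fell and 0 rose in limma's tumour test. Among all kept genes 8.26% fell and 11.1% rose. The 3 were Alas1, the first enzyme of heme synthesis (-0.85, adjusted p = 0.0171), the ferredoxin Fdx1 (-0.85, adjusted p = 0.0473) and the heme-binding protein Pgrmc1 (-0.83, adjusted p = 0.049). Each was lower in 2 of 2 tumour arrays. Hmox1, which breaks heme down, was higher in tumour by 0.56 in F/F and 1.37 in wild-type mice. Both its normal values were under the median level, and it did not pass limma's test (adjusted p = 0.0708). The reductase gene Por had no probe set assigned to it alone and was not analysed here. Among 5 kept related enzymes, the epoxide hydrolase Ephx2, which acts on the epoxides that Cyp2c and Cyp2j enzymes make, fell by 1.34 (adjusted p = 0.0189, lower in 2 of 2 tumour arrays), and the other 4 did not pass. Ephx2 was at 4.87 in F/F tumour and 4.45 in wild-type tumour, against 6.40 in F/F normal colon and 5.61 in wild-type normal colon.

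**Figure D4:**
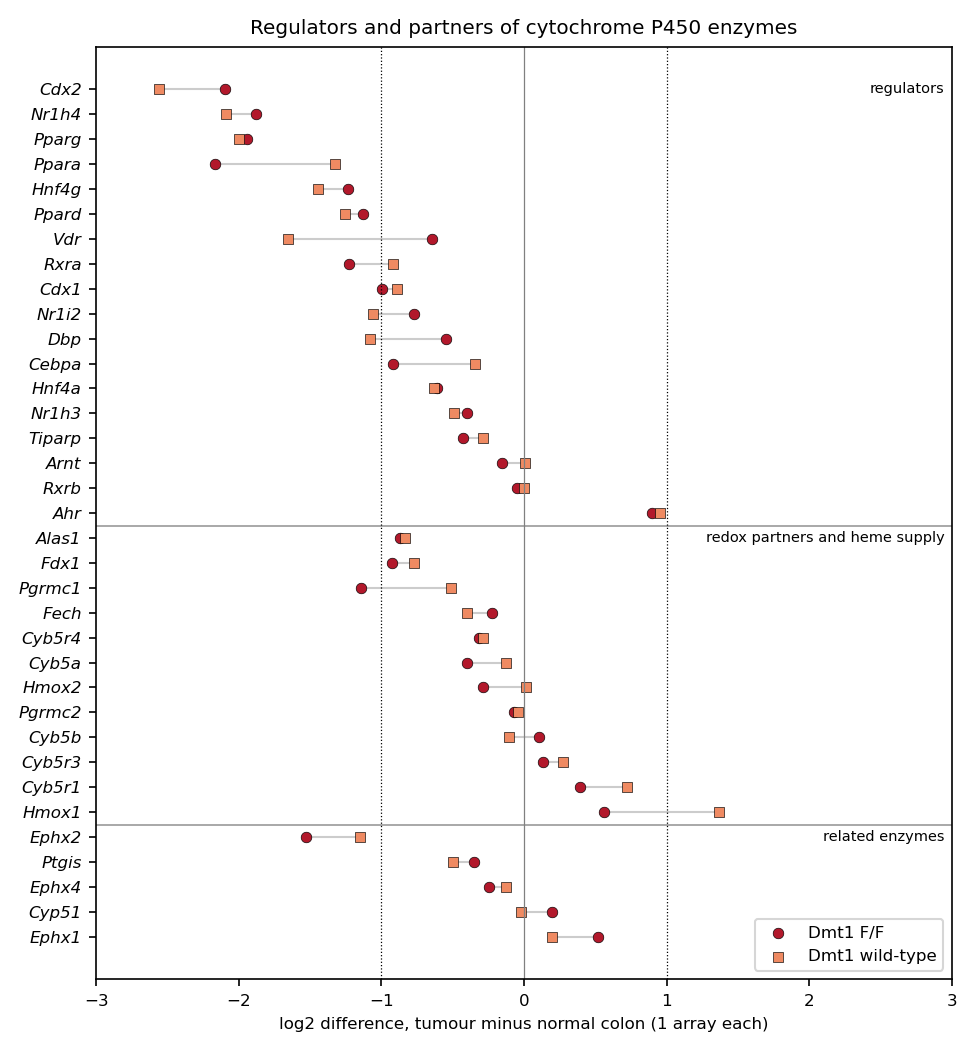
Log2 difference of tumour minus normal colon (x axis) in Dmt1 F/F (red circles) and Dmt1 wild-type mice (orange squares) for kept regulators, redox and heme genes and related enzymes (y axis), 1 array per group, with dotted lines at 2-fold. The regulators Cdx2, Nr1h4, Pparg, Ppard and Hnf4g lie below -1 in both genotypes, and Ahr lies at 0.90 in F/F and 0.95 in wild-type mice. Ppara also lies below -1 in both, but its tumour values (3.69 in F/F, 3.43 in wild-type) were under the median level.

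Markers of hepatocytes, the main cells with these enzymes, were mostly under the median level. Of 12 measured, 4 were kept (Alb, Ttr, Tat and Cps1), with means of log2 6.90 in F/F tumour and 7.02 in wild-type tumour, against 6.48 in F/F normal colon and 6.75 in wild-type normal colon. The fibrinogen genes Fga and Fgb and the plasma protein genes Apoh and Ahsg were under the median level on all 4 arrays. Alb, the serum albumin gene, rose in limma's tumour test (1.24, adjusted p = 0.0145) and Tat, a tyrosine-degrading enzyme, fell by 0.98 (adjusted p = 0.0171), each the same way in 2 of 2 tumour arrays. Their part in the cytochrome P450 values was not tested.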

How the data were processed

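The authors deposited 1 log2 signal for each probe set and array. RMA and oligo are the tools that the submitters' processing notes name, without versions. RMA equalises the arrays' intensity distributions, so differences in total signal are lost; the 4 array medians over 41345 probe sets were log2 4.34 (F/F tumour), 4.34 (wild-type tumour), 4.27 (F/F normal colon) and 4.30 (wild-type normal colon). Per the labels' protocols, total RNA extracted with Trizol was labelled with biotin. Depth has no meaning for arrays, and their number limits the precision.

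Probe sets were named from the platform annotation: 23521 had 1 gene, 1814 several and 16010 none. Symbols came from the RefSeq table of GRCm38.p6, which matched 23328. Per gene, the single-gene probe set with the highest mean was used (1082 genes had several). The array build is not given, so RefSeq coordinates are printed for promoters only.

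Differences of 2 arrays were called at log2 1 (2-fold). Limma 3.58.1 in R 4.3.3 fitted tissue and genotype as additive terms on 12118 kept genes, with eBayes and trend (1 residual degree of freedom, prior 3.43) and Benjamini-Hochberg at 0.05. The tumour test was also tried on simulated data, built from the levels and variances of the real fit. There 16 of 182 calls were false. Of the simulated tissue effects, 42% of log2 size 1 and 92% of size 2 were recovered. The simulated effects were placed in a small part of the genes and were the same in both genotypes. These rates therefore need not hold for the real data. Both tissues of 1 genotype could stem from shared animals, and p-values do not measure the spread between animals. The promoter alignment was global with free end gaps. Named genes are the members that passed 2-fold in any comparison or limma's test; members, lists and rules were chosen with earlier results of these data known. Columns that belong to other samples numbered 0. Alternatives were other normalizations, centring, filters, probe set rules, folds and model terms.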

Additional observations from a re-analysis of the deposited data

Results flagged for a closer look

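Cyp2d12 and Cyp2d13 differed in opposite directions past 2-fold as measured, and with 1 array per group these differences were not tested. The F/F minus wild-type difference of Cyp2d12 was 1.15 in tumour and -1.13 in normal colon. Its wild-type tumour value was under the median level, so the F/F tumour was at least 1.63-fold higher, a bound under 2-fold. For Cyp2d13 the F/F minus wild-type difference was 1.53 in tumour and -1.05 in normal colon, and its tumour minus normal difference was 1.33 in F/F mice and -1.25 in wild-type mice. Against the normal array of the other genotype, an alternative chosen after seeing the data, the tumour differences of Cyp2d13 were 0.29 for the F/F tumour and -0.20 for the wild-type tumour, both under 2-fold. Those of Cyp2d12 were -0.40 for the F/F tumour and -0.43 for the wild-type tumour, no longer of opposite sign. Among all 12118 kept genes, 8 had genotype differences of opposite sign past 2-fold in both tissues and 7 had such tumour differences. Both genes lie in a cluster of similar Cyp2d genes and pseudogenes, so their probe sets may share signal.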

How the results depend on the processing

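Over all comparisons, 93 recomputed counts of members stayed within 1.5 times the reported count and 17 did not. For F/F tumour against normal colon, 3 genes were higher under a filter set 1 log2 unit above the median level (the stricter filter), 13 were lower at 1.5-fold, and against the normal array of the wild-type mice 2 were higher and 3 lower. With values raised to the median level, 3 genes were higher in F/F tumour and 1 in wild-type tumour. For wild-type tumour against normal colon, 1 gene was higher after quantile normalization, after median centring and under the stricter filter, all settings in which Cyp2b10 no longer passed the level filter. At 1.5-fold, 1 gene was lower in the F/F than the wild-type tumour, and 10 were higher and 4 lower in F/F normal colon. No share over all kept genes is given for the 1.5-fold counts, so they do not set the members apart from other genes. Limma's tumour test had 1 gene that rose after quantile normalization, after median centring, under the stricter filter and with tissue as the one term, and 3 that fell with tissue as the one term. No called value of a named gene changed sign. Median centring brought Cyp2d26 (adjusted p = 0.0403) and Cyp4b1 (adjusted p = 0.0283) past limma's tumour threshold. No paired analysis was possible because no replicate numbers exist; leaving out an array leaves no residual degree of freedom in the additive model.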
